A study of Mus musculus with 3 samples.

Results

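The bound sites described here are those of the forkhead transcription factor Foxf2 around 8 genes that encode transcription factors of the oral mesenchyme: Msx1, Msx2, Alx1, Alx4, Barx1, Lhx6, Lhx8 and Pax9. A site was given to 1 of these genes when its midpoint had its nearest protein-coding transcription start site (TSS, GENCODE basic, mm10) in that gene. Of the 25707 peaks of the deposited list, 46 met this rule, and they belonged to 7 of the 8 genes. Lhx6 had none and is kept in every count of genes. The list came from tongues of mouse embryos at E12.5 that were homozygous (Foxf2FLAG/FLAG) for a 3xFLAG tag on the endogenous Foxf2 protein, written into the gene by CRISPR/Cas9 editing. The 2 ChIP libraries were made with an antibody against FLAG and the 1 input library was sequenced without immunoprecipitation, all 3 from tagged tissue. The labels give 75 tongues for each library, with no word on whether that number is per library or in all. A FLAG ChIP from untagged tissue was not analysed here.

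Foxf2 is made in the mesenchyme of the developing tongue and palate, and mice without it have a cleft palate. Forkhead proteins recognise a short sequence built around TAAACA, and most of their sites lie away from promoters. Msx1 and Msx2 are homeodomain repressors that act downstream of BMP signals in tooth and palate mesenchyme. Alx1 and Alx4 are aristaless-like homeodomain factors of the frontonasal and cranial mesenchyme. Barx1 marks the mesenchyme of the future molar region and of the stomach. Lhx6 and Lhx8 are LIM-homeodomain factors with overlapping roles in the mesenchyme of the first pharyngeal arch. Pax9 carries a paired domain in place of a homeodomain and is needed for teeth and palate.

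The peak list is 1 table for the whole series, with a position, a score and a focus ratio for each peak. It has no value per library, so there is no spread between replicates behind any value below and no value carries an error. Peaks of 1 list are not replicates, and the comparisons below are therefore counts, medians and exact 95% intervals that cover counting of peaks only. Read depth is unknown. The score is the authors' own value from the peak caller and is used only to rank and describe peaks within this list. Its scale is not stated, and it ranged from 10.1 to 243.9 with a median of 16.2. The tongue is a mixture of cell types, so a site bound in few cells and a site bound weakly in many cannot be told apart. Expression was not measured, so marker genes of the labelled tissue could not be read.

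The sequences that carry the results are the highest-scored peak of each of the 7 genes and 3 further peaks: the pair nearest to a member's TSS, at Lhx8 and Msx1, and a Msx2 peak with matches that overlap. Each is the plus strand of mm10, 5′ to 3′, from the first to the last base of the deposited peak. Capitals mark matches on either strand to the forkhead core, searched as 4 forms: GTAAACA itself, its variant GTAAATA and the same pair beginning with A, which are written ATAAACA in the first case and ATAAATA in the other. In the Lhx8 promoter peak, which has no such match, the capitals mark the shorter TAAACA.
Lhx8, 50.4 kb upstream, chr3:154380945-154381157: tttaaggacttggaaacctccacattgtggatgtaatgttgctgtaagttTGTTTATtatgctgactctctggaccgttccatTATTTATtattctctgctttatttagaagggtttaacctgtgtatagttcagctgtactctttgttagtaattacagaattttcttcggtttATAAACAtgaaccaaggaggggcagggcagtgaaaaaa
Lhx8, promoter, chr3:154330742-154330954: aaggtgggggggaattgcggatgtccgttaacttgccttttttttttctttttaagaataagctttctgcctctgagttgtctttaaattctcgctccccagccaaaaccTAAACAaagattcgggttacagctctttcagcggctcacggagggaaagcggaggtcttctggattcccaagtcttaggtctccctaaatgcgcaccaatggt
Barx1, 54.3 kb downstream, chr13:48717155-48717367: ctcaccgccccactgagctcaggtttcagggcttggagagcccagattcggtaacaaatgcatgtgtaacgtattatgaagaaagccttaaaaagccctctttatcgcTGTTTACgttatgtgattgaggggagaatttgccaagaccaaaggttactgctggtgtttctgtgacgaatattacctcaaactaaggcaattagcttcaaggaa
Pax9, 32.8 kb downstream, chr12:56728316-56728528: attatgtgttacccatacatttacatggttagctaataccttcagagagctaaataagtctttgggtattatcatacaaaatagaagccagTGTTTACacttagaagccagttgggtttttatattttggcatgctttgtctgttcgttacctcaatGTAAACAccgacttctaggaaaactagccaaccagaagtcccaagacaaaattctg
Alx4, 48.2 kb downstream, chr2:93690527-93690739: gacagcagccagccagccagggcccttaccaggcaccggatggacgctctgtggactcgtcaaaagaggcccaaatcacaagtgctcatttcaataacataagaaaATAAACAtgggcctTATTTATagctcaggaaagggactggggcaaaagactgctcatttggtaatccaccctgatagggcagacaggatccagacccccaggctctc
Alx1, 33.4 kb upstream, chr10:103063465-103063677: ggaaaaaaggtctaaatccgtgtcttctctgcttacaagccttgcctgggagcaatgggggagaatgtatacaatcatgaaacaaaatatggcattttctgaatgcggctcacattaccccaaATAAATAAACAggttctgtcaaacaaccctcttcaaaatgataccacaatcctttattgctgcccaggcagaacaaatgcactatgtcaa
Msx2, 70.3 kb upstream, chr13:53543267-53543479: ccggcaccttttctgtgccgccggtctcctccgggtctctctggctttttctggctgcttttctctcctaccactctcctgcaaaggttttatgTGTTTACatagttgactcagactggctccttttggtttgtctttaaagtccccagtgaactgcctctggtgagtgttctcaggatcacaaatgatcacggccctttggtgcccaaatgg
Msx2, 14.1 kb upstream, chr13:53487091-53487303: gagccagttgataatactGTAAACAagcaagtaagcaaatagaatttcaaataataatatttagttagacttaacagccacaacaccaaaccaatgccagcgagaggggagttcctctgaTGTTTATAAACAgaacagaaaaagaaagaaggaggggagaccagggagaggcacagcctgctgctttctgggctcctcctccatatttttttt
Msx1, 92.8 kb upstream, chr5:37917250-37917462: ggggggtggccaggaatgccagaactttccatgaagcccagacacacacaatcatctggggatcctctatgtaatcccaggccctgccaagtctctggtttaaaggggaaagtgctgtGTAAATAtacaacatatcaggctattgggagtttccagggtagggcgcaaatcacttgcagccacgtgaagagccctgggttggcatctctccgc
Msx1, 2.27 kb upstream, chr5:37826743-37826955: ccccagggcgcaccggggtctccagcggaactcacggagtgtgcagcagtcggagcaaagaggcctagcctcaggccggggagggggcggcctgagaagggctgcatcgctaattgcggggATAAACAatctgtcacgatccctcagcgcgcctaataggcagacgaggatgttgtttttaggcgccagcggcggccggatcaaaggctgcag

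Foxf2 peaks were found at most of the 8 genes, in numbers that differed widely between them. Lhx8 had 14 peaks, Msx2 8, Barx1 7, Pax9 6, Msx1 and Alx4 4 each, Alx1 3 and Lhx6 none. The median was 5 peaks per gene. A share of 7 of 8 genes had at least 1 peak, against 37.3% of all 21938 protein-coding genes. The genes also differ in how much sequence lies nearer to their TSS than to any other (their territory), and a larger territory has more room for peaks. The territories ran from 44.1 kb at Lhx6 to 349 kb at Alx1, against a median of 47.1 kb over all genes. Among the genes in the same decile of territory length as Lhx6, 25.4% had a peak, and in the decile that holds Msx2, Alx1 and Lhx8 81.5% had one.

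Per 100 kb of territory the order of the genes changed. Barx1 came first with 5.7 peaks per 100 kb and Lhx8 second with 4.49. Alx4 had 3.05, Msx1 2.64, Msx2 2.36 and Pax9 2.18 peaks per 100 kb. Alx1 had 0.86, below the mean of the autosomes of 1.03, and the other 6 genes with a peak were above that mean. Over the 8 territories together there were 2.67 peaks per 100 kb. Of the 21917 genes with a territory of their own, 3.16% had a density at least that of Barx1, 5.35% at least that of Lhx8 and 30.3% at least that of Alx1. No error can be put on these densities, so neighbours in the order are not separated.

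**Figure D1:**
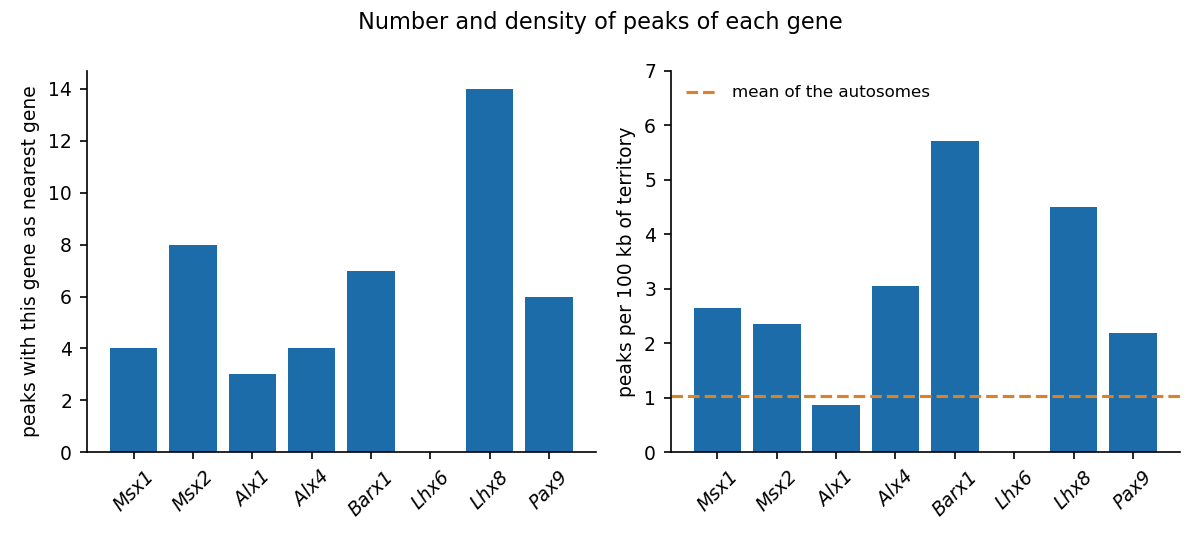
Bars give the number of Foxf2-FLAG peaks whose nearest protein-coding TSS is in each gene (left) and the same number per 100 kb of sequence nearest to that gene (right), with the autosomal mean of 1.03 as a dashed line. Lhx8 has the most peaks with 14, Barx1 has the highest density with 5.7 per 100 kb, and Lhx6 has none.

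Apart from 1 peak at the Lhx8 promoter, the peaks were centred outside the genes' own promoters and bodies. The midpoints were a median of 55.7 kb from the TSS, from 0.189 to 236.2 kb, beside a median of 51.3 kb over all peaks. Within 10 kb of a TSS there were 3 of 46 peaks (6.52%, interval 1.37 to 17.9), against 20.9% of all peaks. Each of the 3 belonged to a different gene, Lhx8, Msx1 and Pax9, and 19.4% of all protein-coding genes had such a peak. Within 100 kb there were 38 of 46 (82.6%, interval 68.6 to 92.2), against 66.2% of all peaks. No peak of the 46 had its centre inside the gene it was given to. The like share over all peaks was not computed, so this count has no reference. Between genes lay 30 peaks (65.2%, interval 49.8 to 78.6), against 40.7% of all peaks. In introns of any gene lay 14 (30.4%, interval 17.7 to 45.8), against 45.4% of all peaks. For these 14 the intron was always that of another gene, whereas the 45.4% also counts introns of a peak's own nearest gene. Of the 46, 24 were upstream of the TSS (52.2%, interval 36.9 to 67.1), against 44.2% of all peaks, and 22 were downstream.

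**Figure D2:**
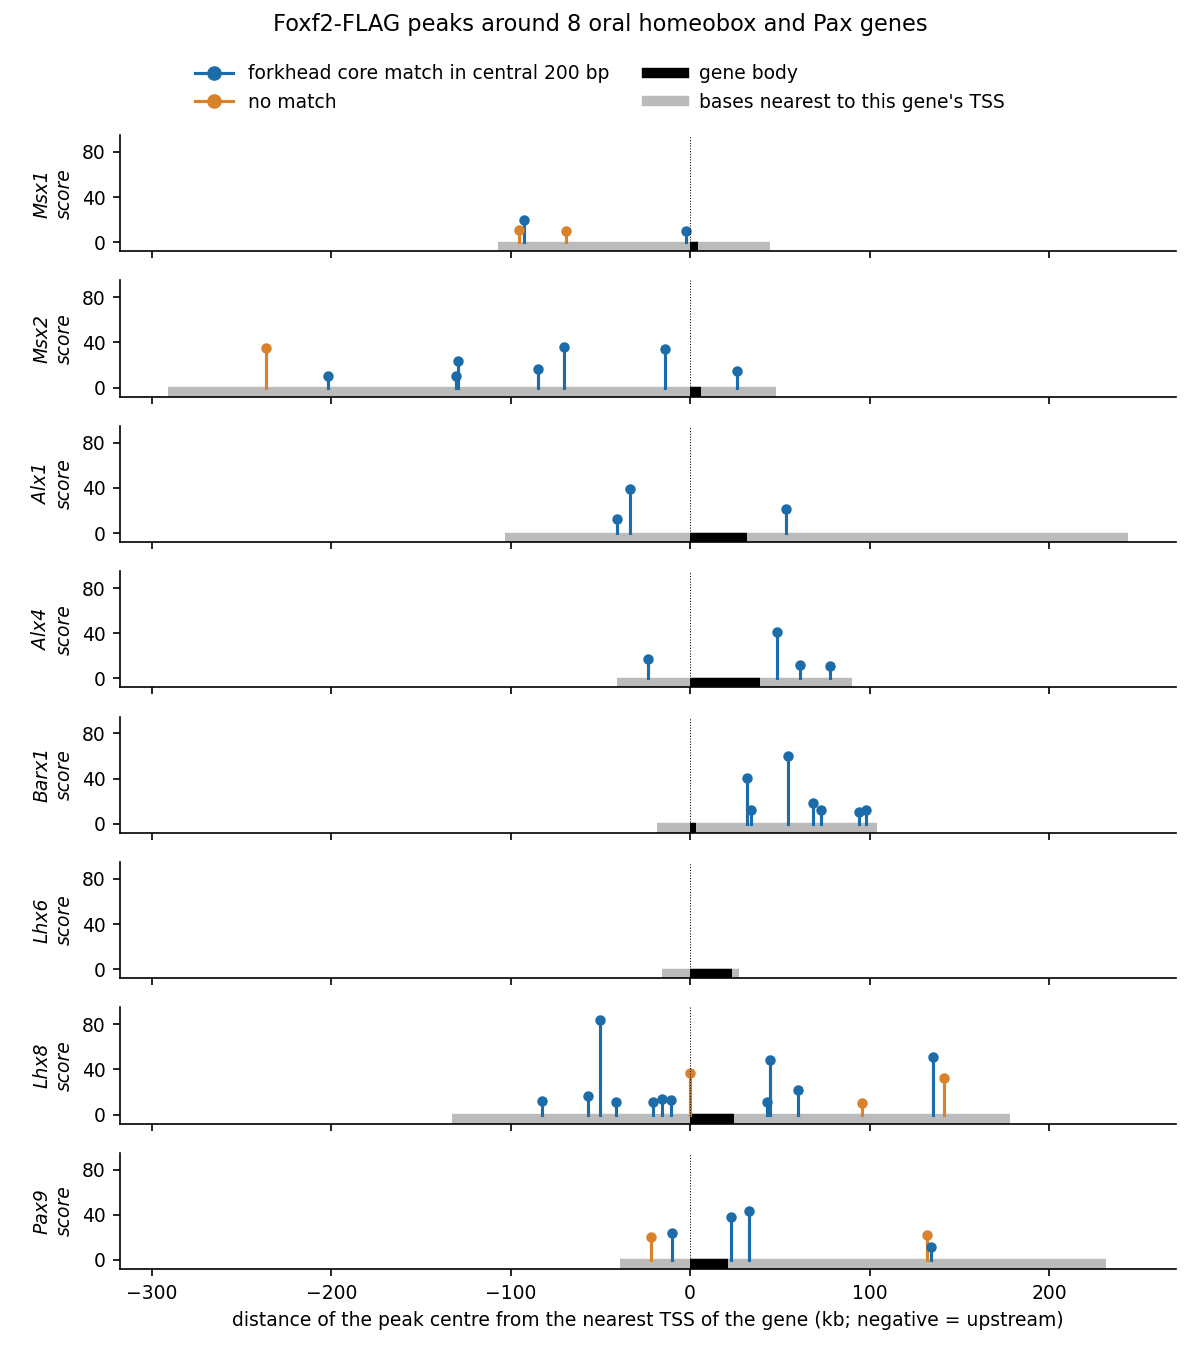
Each panel is 1 gene, with the distance of each peak centre from the nearest TSS of that gene (kb, negative upstream) on the x axis and the peak score on the y axis. Blue stems hold a forkhead core match in the central 200 bp and orange stems do not, black bars are gene bodies and grey bars the sequence nearest to the gene. Peaks of Msx1 are all upstream and those of Barx1 all downstream, in each case the side with the longer grey bar, and Lhx6 has none.

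Lhx8 (chr3:154306294-154330659, minus strand) had the most peaks and the highest-scored one. Its leading peak scored 83.9, rank 295 of the list (top 1.15%), 50.4 kb upstream of the TSS between Lhx8 and Cryz. The 3 core matches in the sequence above lay 20, 53 and 72 bp from the peak centre. The next scored 50.8 and lay 136 kb downstream, in intron 2 of 21 of Slc44a5, a choline transporter-like gene, with 3 matches. A peak of 47.9 followed 44.7 kb downstream of the TSS, with GTAAACA 2 bp from the centre. The fifth scored 32.1, 141 kb downstream in the same Slc44a5 intron, and held none of the 4 forms.

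The fourth Lhx8 peak was at the promoter, and no other member had a peak at its own. It scored 37.2 (rank 2784) and was centred 189 bp upstream of the TSS. Counting a promoter as 1000 bp before a TSS and 100 bp after it, 6.68% of all protein-coding genes had a peak there. Its centre also lay in exon 1 of AI606473, a noncoding transcript whose TSS was 0.027 kb from that centre. The peak held no 7-base forkhead match, and the printed sequence shows a single TAAACA. Of the 6 members with RefSeq promoter windows in the GRCm38.p6 table (250 bases before to 50 after a start, 8 windows), none had a core match in any window, against 15.0% of 32851 windows of all genes.

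The other 9 Lhx8 peaks scored 10.1 to 22.1. Most Lhx8 peaks stood in groups: 10 of the 14 lay in 4 runs in which neighbours were at most 10 kb apart. A run of 3 spread over 15.8 kb around the leading peak, with scores of 10.7, 83.9 and 16.3 in order along the chromosome. Another run of 3, upstream and nearer to the gene, spread over 9.74 kb and scored 11 to 13.8. The pairs downstream spanned 2.03 and 5.84 kb. A core match was present in 11 of the 14 peaks, and GTAAACA, the form most often given for forkhead proteins, in 7.

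Lhx6, the LIM-homeodomain partner of Lhx8, had no peak nearest to any of its 4 TSSs (chr2:36081953-36105408, minus strand). The nearest peak of the list lay 23.8 kb away, upstream of Lhx6 and nearest to Mrrf (7.22 kb from its TSS, score 13.9, chr2:36129064-36129276). Within 100 kb of Lhx6 there were 5 peaks in all, each nearer to another gene: 3 to Rbm18, 1 to Mrrf and 1 to Ptgs1. The highest of them scored 51.0, 50.8 kb from Lhx6 and 19.4 kb from Rbm18. No depth or limit of detection is known, so Lhx6 is a gene without a listed peak and not one shown to be unbound.

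Barx1 (chr13:48662998-48666507, plus strand) had its 7 peaks on 1 side of the gene. All lay downstream, between 31.7 and 97.9 kb from the TSS, in the sequence that separates Barx1 from Phf2. Its territory extends 104 kb in that direction and 18.7 kb upstream, where Ptpdc1 is the neighbour. The leading peak scored 60 (rank 878, top 3.42%) and carried 1 match, GTAAACA on the minus strand 5 bp from the centre. The second scored 40.4, 31.7 kb downstream, with 2 matches. The others scored 18.6, 12.1, 11.9, 11.8 and 10.4. A core match was present in each of the 7 peaks, but GTAAACA only in the leading one, and 6 of the 7 stood in pairs that spanned 2.06, 4.39 and 4.01 kb.

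A strong peak stood on the other side of Barx1 and was given to its neighbour. It scored 39.4 (chr13:48639626-48639838) and lay 23.3 kb from the Barx1 TSS, nearer to it than any of the 7. Its nearest TSS, at 14.1 kb, was that of Ptpdc1, and it held no core match. The count of Barx1 thus depends on where the border between the 2 genes is drawn.

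Pax9 (chr12:56691767-56712822, plus strand) had 6 peaks, 2 upstream and 4 downstream. The upstream pair scored 24.3 at 9.97 kb and 20.7 at 21.9 kb from the TSS. All 4 downstream peaks lay inside Slc25a21, a mitochondrial carrier gene next to Pax9. The leading pair, with 43.4 at 32.8 kb (rank 2007) and 38.2 at 23.0 kb (rank 2640), lay in intron 7 of 9 of Slc25a21. The remaining pair scored 22.0 and 11.6, 132 and 134 kb downstream in intron 3. Slc25a21 held 12 peaks in all and was itself the nearest gene of 9 of the list's peaks. The leading Pax9 peak held 2 copies of GTAAACA, 12 and 54 bp from its centre, 1 on each strand. Of the 6 Pax9 peaks, 4 had a core match.

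Msx2 (chr13:53466884-53473074) had 8 peaks and Msx1 (chr5:37820485-37824583) 4, and both sets lay mainly upstream. Both genes are on the minus strand, and upstream is also where most of their territory lies. That of Msx2 extends 291 kb upstream and 47.8 kb downstream, and that of Msx1 107 kb and 44.5 kb. The Msx2 peaks scored 35.9, 34.8, 33.9, 23.2, 16.5, 14.7, 10.4 and 10.1. The first 3 lay 70.3, 236 and 14.1 kb upstream of the TSS, so that the peaks nearly as strong as the leading one were the farthest and the nearest upstream. The next 5, in order of score, lay 129 and 84.9 kb upstream, 26.3 kb downstream, and 131 and 202 kb upstream. Of the Msx2 peaks 7 held a core match. The exception was the one 236 kb upstream. The 14.1 kb peak carried TGTTTATAAACA, in which 2 matches on opposite strands overlap, and the peak at 84.9 kb carried ATAAATAAACA, in which 2 on the same strand do.

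Msx1 had the weakest peaks of the 7 genes with any. Its 4 peaks scored 19.7, 10.7, 10.4 and 10.2, and the highest ranked 9269 of the list (top 36.1%). The other 3 ranked between 23373 and 25071. The leading peak stood 92.8 kb upstream beside the second at 95.3 kb, and the third, 69.3 kb upstream, lay at the start of the noncoding gene Gm20052. The fourth was 2.27 kb upstream of Msx1, with a GC content of 62.5%, the highest of the 46 peaks. It held ATAAACA 18 bp from its centre. The focus ratio, a value of the peak caller that rises with the sharpness of a peak, was 0.867 at the leading Msx1 peak and 0.657 to 0.694 at the other 3, where the median of the list was 0.783.

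Alx4 (chr2:93642384-93681339, plus strand) had 4 peaks and Alx1 (chr10:102998707-103030215, minus strand) 3, each with a core match. The Alx4 peaks scored 41.0, 17.3, 11.6 and 11.2. The leading one (rank 2269, top 8.83%) lay 48.2 kb downstream, in the last intron of Ext2, a gene of heparan sulfate synthesis, and 2 others lay in the same intron, 61.2 and 77.8 kb downstream. The remaining one lay 23.5 kb upstream and held GTAAACA. The Alx1 peaks ranked 2571, 8371 and 18827, and the leading one scored 38.6. The first and the third were 33.4 and 40.7 kb upstream in introns 25 and 24 of Lrriq1, and the second was 53.6 kb downstream. The leading Alx1 peak fell just outside the highest-scored decile of the list, which began at the same rounded score. It carried ATAAATAAACA, the same 11 bases as the Msx2 peak at 84.9 kb.

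Taken over the 46 peaks, the scores resembled those of the list. Their median was 16.9, against 16.2 over all peaks, and 25 of 46 were at or above the list's median (54.3%, interval 39.0 to 69.1). The upper quartile was 34.6, against 24.5 for all peaks. In the highest-scored decile of the list were 7 of the 46 (15.2%, interval 6.34 to 28.9): 3 at Lhx8, 2 at Barx1 and 1 each at Alx4 and Pax9. These are 4 of 8 genes, and 8.07% of all protein-coding genes had such a peak. The 2 shares are not matched for territory, whose median was 213 kb for the 8 genes and 47.1 kb for all genes. Of all protein-coding genes, 37.3% had a peak of any score. Gene by gene the median score ran from 10.55 at Msx1 to 23.15 at Pax9, a spread smaller than that of the scores within Lhx8 or Barx1. The median focus ratio was 0.792, against 0.783 over all peaks.

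**Figure D3:**
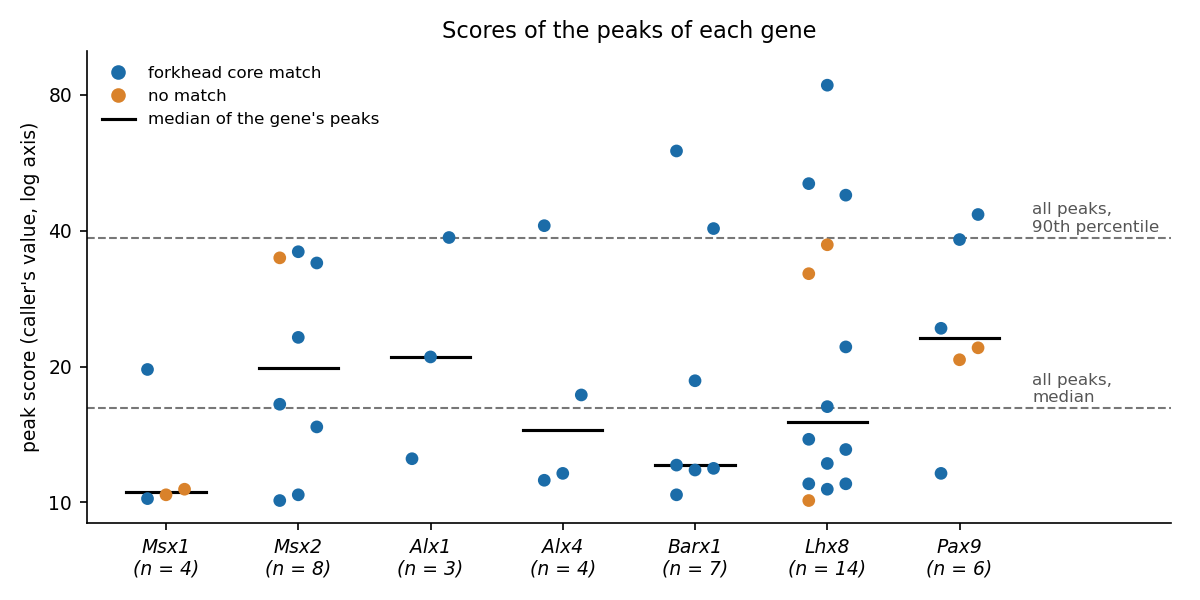
Each point is 1 peak, by gene, with its score from the peak caller on a log axis. Blue points hold a forkhead core match, orange points do not, black lines are medians per gene, and dashed lines are the median (16.2) and the 90th percentile (38.6) of all peaks. Msx1 peaks lie at or below 19.7, and peaks of Lhx8, Barx1, Pax9 and Alx4 pass the upper line.

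The forkhead core was present in most of the peaks of these genes. Of the 46 peaks, 38 held at least 1 of its 4 forms within 100 bp of the centre (82.6%, interval 68.6 to 92.2), against 72.5% of all 25704 peaks. The interval of the 46 peaks includes the share of the list. Windows of the same width 2000 bp to either side of the 46 peaks held a match in 23 of 92 cases (25%, interval 16.6 to 35.1), and those of all peaks in 18.3%. The share was 34.8% on the lower-coordinate side and 15.2% on the other, against 18.4% and 18.3% for all peaks. Some of these flank matches belong to other listed peaks. The Lhx8 pair 2.03 kb apart and the Barx1 pair 2.06 kb apart lay in each other's flank windows. At least 2 matches were present in 19 of the 46 (41.3%, interval 27.0 to 56.8), against 21.3% of all peaks. Matches overlapped each other in 3 of the 46, which are the Alx1 peak and the 2 Msx2 peaks named above, and in 3.46% of all peaks. Among peaks scored at or above the median of the list, 20 of 25 had a match, against 78.4% of all peaks in that range of scores. Among the lower-scored, 18 of 21 had one (85.7%, interval 63.7 to 97.0), against 66.6% of all such peaks, a share inside that interval.

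The 63 matches in the 46 peaks were spread over all 4 forms. ATAAACA made up 24 of them (38.1%, against 44.6% of the matches in all peaks) and GTAAACA 16 (25.4%, against 29.4%). ATAAATA made up 13 (20.6%, against 15.7%) and GTAAATA 10 (15.9%, against 10.3%). GTAAACA was in 14 of the 46 peaks (30.4%, interval 17.7 to 45.8) and in 27.4% of all, and ATAAACA in 39.1% and 38.1%. ATAAATA was in 28.3% (interval 16.0 to 43.5) against 13.5%, and GTAAATA in 19.6% (interval 9.36 to 33.9) against 9.79%. In the flanks ATAAATA was in 17.4% on the lower-coordinate side and 6.52% on the other, against 7.96% and 8.19% for all peaks. GTAAATA was in 10.9% and 8.7% there, against 3.95% and 3.79%. In peaks with a match, the one nearest to the centre was a median of 11 bp from it, as in all peaks, and in 29 of 38 peaks it was within 20 bp (76.3%, interval 59.8 to 88.6), against 72.1% of all peaks with a match. The 8 peaks with no match were 3 at Lhx8, 2 at Msx1, 2 at Pax9 and 1 at Msx2. Of these, 4 held the shorter TAAACA or TAAATA.

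**Figure D4:**
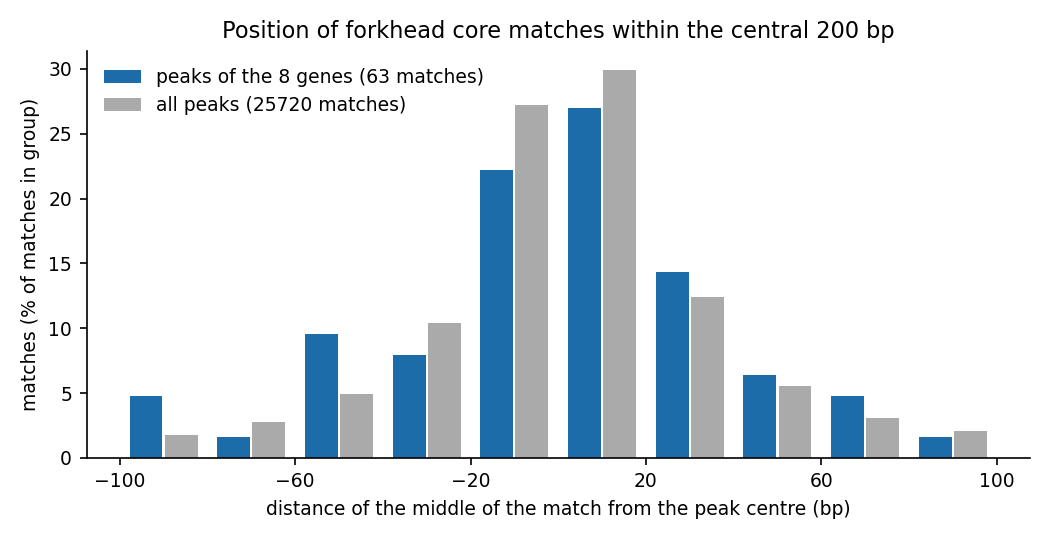
Bars give the share of forkhead core matches (percent of the matches in a group, y axis) by distance from the peak centre in 20 bp bins (x axis), for 63 matches in peaks of the 8 genes (blue) and 25720 matches in all peaks (grey). In both groups the 2 bins next to the centre hold the most matches.

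Other short sequences were counted in the same windows on both strands. TAATTA and CAATTA, sites of the kind that homeodomain proteins bind, were in 3 and 8 of the 46 peaks, or 6.52% and 17.4% (interval 7.82 to 31.4), against 6.07% and 8.76% of all peaks. In the flanks of the 46 peaks CAATTA was in 5 windows on the lower-coordinate side (10.9%, against 8.25% for all peaks) and in 7 on the other (15.2%, against 8.57%). The E-box CANNTG was in 34 of 46 (73.9%, against 76.0% of all), and its forms CATCTG and CAGCTG, which are contained in it, were in 13 (28.3%, against 28.0%) and 9 (19.6%, against 18.7%). TGACAG, read by TALE homeodomain factors, was in 11 (23.9%, against 17.9%), and GGAATG, read by TEAD factors, in 6 (13.0%, against 15.1%). The share in all peaks lay inside the interval of the 46 peaks for each of these 7 sequences. Repeat-masked bases were present in 25 of the 46 windows (54.3%), against 63.2% in all peaks, and the median GC content was 43.5% in both.

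Peaks of these genes stood near other peaks. Another peak of the list lay within 10 kb of 26 of the 46 (56.5%), against 36.7% of all peaks. These 26 formed 12 groups of 2 or 3 peaks of the same gene, and Alx4 was the one gene with peaks but no such group. Scores were unequal within some groups, with 40.4 and 11.8 in a Barx1 pair 2.06 kb apart and 23.2 and 10.4 in a Msx2 pair 1.19 kb apart. They were closer in others, with 43.4 and 38.2 in a Pax9 pair 9.81 kb apart and 11.9 and 10.4 in a Barx1 pair 4.01 kb apart. How often scores differed within groups was not measured.

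The first list of related genes held family relatives of the 8, drawn from the Msx, Barx, LIM-homeodomain and Pax genes of the mouse. Peaks were found at 15 of these 20 genes (75.0%), against 37.3% of all genes, and the median territory was 187 kb, against 47.1 kb for all genes. The decile of territory length with Msx1 (152 kb) and Pax9 (275 kb) also holds that median of 187 kb. Among the genes in it 72.7% had a peak, close to the share of the relatives. There were 51 peaks in all, with a median of 2 per gene and 1.07 peaks per 100 kb of territory. Pax3, a regulator of muscle precursors and neural crest, had the most with 11, followed by Barx2 and Isl1 with 5 each, and Lhx2, Isl2, Lmx1b and Pax1 with 4 each. Lhx5, Lhx9, Pax2, Pax4 and Pax5 had none. Counts also differed within families, with 8, 4 and 1 peaks at Msx2, Msx1 and Msx3, and 7 and 5 at Barx1 and Barx2. Territories differed too, from 339 kb at Msx2 to 22.9 kb at Msx3. Per 100 kb the order of the Msx genes was reversed, with 2.36, 2.64 and 4.37, the last from 1 peak. Barx1 and Barx2 had 5.7 and 1.53 per 100 kb. The highest score among the relatives was 101.8, at a peak 171 kb downstream of Isl2, above that of any of the 8 genes. The core was in 38 of the 51 peaks (74.5%, against 72.5% of all peaks).

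Signals, cofactors and partners with which the 8 genes work in oral tissue formed the second list of 16 genes. Their median territory was 377 kb. Peaks were found at 11 of the 16 (68.8%), against 37.3% of all genes, whose median territory was 47.1 kb. Among the genes in the decile of territory length that holds Msx2, 81.5% had a peak. The 16 genes had 128 peaks in all, with a median of 9 per gene and 2.05 per 100 kb, beside 2.67 for the 8 genes. Runx2, a regulator of bone and tooth mesenchyme, had 18, Bmp2 17, Wnt5a and Ldb2 16 each, Inhba 15 and Fgf9 11. Bmp4, a ligand upstream and downstream of Msx1 in the tooth, had 9 (4.72 per 100 kb). Osr2, whose product opposes Msx1 in the tooth field, had 6, with the highest-scored 0.13 kb upstream of the TSS (33.8). Ldb2 and Ldb1, cofactors that bind LIM-homeodomain proteins, had 16 and 1, in territories of 611 and 29.4 kb (2.62 and 3.4 per 100 kb). Fgf3, Fgf8, Shh, Edn1 and Sostdc1 had none; the first 4 are signalling ligands and Sostdc1 is an antagonist of BMP and Wnt signals.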

How the data were processed

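Anti-FLAG ChIP-seq was done on E12.5 mouse tongues. Per the submitters' processing notes, Bowtie2 (2.4.1) placed reads on mm10 and SAMtools (1.7.1) was also used, and the authors called peaks with HOMER with the input as control, per the series' design text. The sources used here do not give the caller's version, its settings or whether the ChIP libraries were pooled. The peak score was used as deposited by the authors. The other value is headed Focus Ratio/Region Size. It was taken to be the focus ratio, deposited as a fraction (0.499 to 0.999), because every peak has the same width (212 bp, end minus start).

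Of 25707 peaks, the 3 on a contig with no chromosome were not used. Sequence was taken from GRCm38.p6, and genes from GENCODE M21 basic transcripts. No peak ran past its chromosome's end. A promoter was 1000 bp before to 100 bp after a TSS. Intervals of shares are exact (Clopper-Pearson, 95%). Both the members and the gene lists were chosen with earlier results of these data known, so no list was tested. A gene planned for the further lists is not reported here. All 8 genes and each of their peaks are named (for Lhx8 the 5 highest), with up to 6 genes of each further list and those without a peak. Where genes tied for the last of these places, all were named. The 3 further peaks whose sequence is printed, and Msx3, Bmp4, Osr2 and Ldb1 among the further genes, were picked with their values known. The alternatives tried concerned the score limit, distance, TSS set, core form, window, flank distance and promoter width. The scan for matches and the nearest-TSS search recovered the known answers on simulated data. Software was Python 3.11.15 with pandas 2.3.3, numpy 2.4.6, matplotlib 3.10.9 and, for the intervals, scipy 1.17.1.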

Additional observations from a re-analysis of the deposited data

How the results depend on the processing

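The number of the 8 genes with a peak stayed at 7 with peaks at or above the median score, with peaks within 100 kb and with the most upstream TSS per gene. It was 3 with peaks within 10 kb of a TSS, and 6 with the nearest TSS of any gene type. The number of their peaks, 46, was also 46 with the most upstream TSS and 38 within 100 kb. It was 25 with peaks at or above the median score, 3 within 10 kb and 14 when TSSs of noncoding genes and pseudogenes also counted. In that last setting Lhx8 had no peak left, since 8 went to AI606473, 5 to Gm42540 and 1 to Gm42541. The density was 1.45 peaks per 100 kb with peaks at or above the median score, an alternative chosen after seeing the data, against 2.67. That limit keeps 50.1% of all peaks. The autosomal mean of 1.03 is over peaks of every score and was not recomputed, so it is no reference for 1.45. The share with a core match, 82.6%, was 30.4% for GTAAACA alone, which is 1 of the 4 forms. It was 76.1% in the central 100 bp, 82.6% in the whole peak, 20 of 25 peaks in the higher-scored ones, and 91.3% for TAAACA or TAAATA, also chosen after seeing the data. Flanks 5000 bp away held a match in 18.5% of windows, against 25% at 2000 bp. A promoter of 2000 bp upstream to 500 bp downstream held 1 peak, as before. Of all 68 results recomputed under an alternative, 41 moved by no more than their limit and 27 by more. No paired analysis was possible because the peak list holds no value per library, and for the same reason no replicate could be left out.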
